A study of Homo sapiens with 9 samples.

Results

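The α- and β-tubulin genes encode the 2 subunits of microtubules, and 10 of them were followed here through a time course of the compound XD23 in 143B osteosarcoma cells. The genes were taken by symbol, and the set was made with earlier results of these data known. They are TUBA1A, TUBA1B, TUBA1C and TUBA4A for α-tubulin, and TUBB, TUBB2A, TUBB2B, TUBB3, TUBB4B and TUBB6 for β-tubulin. All 10 were found among the 36810 genes of the deposited table, each under a single Ensembl identifier. Messenger RNA was sequenced in 9 libraries of 143B, an established human osteosarcoma cell line grown in RPMI-1640 with fetal bovine serum. The control libraries (n = 3) were taken at 0 h, and the others came from cells given 0.5 µM XD23 for 24 h (n = 3) or 48 h (n = 3). These times are those of the sample labels; the design text of the series mentions a 48 h incubation alone. The labels give XD23 only as a code name. The labels name neither a vehicle nor untreated cells at 24 h or 48 h, so the compound and the time in culture cannot be told apart in any comparison. Whether replicate libraries stem from separate cultures is not stated, so p-values measure the spread between libraries, which may be technical.

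Microtubules are built from dimers of an α- and a β-tubulin and form the mitotic spindle, transport tracks and cilia. Human cells hold several isotypes of each subunit. The isotypes share a conserved core and differ mostly in an acidic tail at the carboxyl end, where tubulins are modified and where many microtubule-binding proteins attach. The level of tubulin messenger RNA is under feedback known as autoregulation. When free dimers accumulate, the factor TTC5 recognises the first 4 residues of nascent tubulins on the ribosome and, through the adaptor SCAPER and the subunit CNOT11, recruits the CCR4-NOT deadenylase, and the messages decay.

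The libraries rested on 18341542 to 22901830 fragments each, worked out from the values. Skeletal and mesenchymal markers were mixed: VIM lay at 296.9 to 311.02 FPKM (fragments per kilobase of gene, scaled to the library's total) and RUNX2 at 6.02 to 6.61 FPKM in the control libraries, while the osteoblast genes COL1A1, COL1A2 and ALPL lay below 1 FPKM in every library. The 7 markers of that list summed to 380 to 409 FPKM at 48 h, against 349 to 361 FPKM in control. Of its 4 tested markers, 3 fell at 48 h (RUNX2 by 0.50, SPP1 by 0.62 and SPARC by 0.56 on the log2 scale); their part in the results below was not tested. The 8 neuronal markers in the table summed to at most 2.74 FPKM in any library, and the 7 markers of blood, endothelium and epithelium to at most 4.97 FPKM. The third 24 h library stood apart from the other 8 on the second principal component, at -24.7 against -6.96 to 9.06, and its ribosomal protein genes averaged 7.84 on the log2(FPKM + 1) scale, against 7.47 to 7.63 in the others.

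The start of each coding sequence is shown because it encodes the residues read in autoregulation. Capitals mark the first 4 codons of the principal GENCODE release 29 transcript, and 30 bases are printed, 5′ to 3′.

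TUBA1A: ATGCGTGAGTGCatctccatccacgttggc
TUBA1B: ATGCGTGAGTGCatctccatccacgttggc
TUBA1C: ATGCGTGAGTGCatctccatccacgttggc
TUBA4A: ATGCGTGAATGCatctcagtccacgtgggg
TUBB: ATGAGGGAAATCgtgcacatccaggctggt
TUBB2A: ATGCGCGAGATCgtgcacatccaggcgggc
TUBB2B: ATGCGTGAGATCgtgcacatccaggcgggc
TUBB3: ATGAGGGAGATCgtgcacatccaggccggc
TUBB4B: ATGAGGGAAATCgtgcacttgcaggccggg
TUBB6: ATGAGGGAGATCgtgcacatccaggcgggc

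TUBA1A, TUBA1B and TUBA1C shared all 30 bases. TUBB had the same first 4 codons as TUBB4B, and TUBB3 the same as TUBB6. TUBA4A, TUBB2A and TUBB2B each had a spelling of their own. TUBA1A and TUBA1B, identical here, had different log2 fold changes at 48 h against control, 1.34 and 0.07. The part of autoregulation in either value was not tested.

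The last 60 coding bases of the β genes, which encode the carboxyl tail and the stop codon, show how the β isotypes differ. Capitals mark bases that differ from TUBB, or have no counterpart in it, after alignment of the whole coding sequences. Bases of TUBB that the other gene lacks are not marked.

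TUBB: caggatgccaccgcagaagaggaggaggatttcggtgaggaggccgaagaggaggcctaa
TUBB2A: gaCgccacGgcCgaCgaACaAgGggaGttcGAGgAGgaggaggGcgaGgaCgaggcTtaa
TUBB2B: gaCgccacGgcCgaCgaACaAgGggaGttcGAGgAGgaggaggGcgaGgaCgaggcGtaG
TUBB3: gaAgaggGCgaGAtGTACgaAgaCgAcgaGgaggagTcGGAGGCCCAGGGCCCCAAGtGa
TUBB4B: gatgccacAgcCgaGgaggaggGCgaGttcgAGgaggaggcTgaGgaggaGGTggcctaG
TUBB6: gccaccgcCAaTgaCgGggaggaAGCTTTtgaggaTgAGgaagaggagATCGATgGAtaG

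The number of bases so marked ran from 14 in TUBB4B to 34 in TUBB3. TUBB2A and TUBB2B, whose coding sequences were 98.1% identical, had 18 and 19 marked bases. Among the α genes, the whole coding sequences of TUBA1A and TUBA1B were 97.2% identical.

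Because of these copies, a read can belong to more than 1 gene. TUBB2A shared 54.1% of its stretches of 50 bases with TUBB2B, counted over all GENCODE transcripts of the gene, and 47.2% of its stretches of 100 bases. TUBA1A shared 17.5% of its stretches of 50 bases with TUBA1B and 13.2% with TUBA1C. TUBB shared 12.4% with the pseudogene TUBBP1, and TUBB6 shared 0.446% with any other gene on the same strand. Opposite-strand overlap adds to this, since no strand-specific counting is stated. TUBA1A (chromosome 12, 49184796 to 49189324, minus strand, GRCh38) and TUBA1C (chromosome 12, 49188736 to 49274603, plus strand) overlap in 490 exonic bases, 14.3% of those of TUBA1A. TUBA1B (chromosome 12, 49127782 to 49131397, minus strand) shares 36.6% of its exonic bases with an antisense gene, which averaged 0.139 FPKM at 48 h and 0.126 FPKM in control. In all, 58.7% of the stretches of 50 bases of TUBB2A and 47.9% of those of TUBB2B occur in another gene on the same strand. For TUBB3, TUBA1B and TUBA1A the shares are 33.4%, 25.6% and 22.1%. The TUBB3 share is that with a gene that overlaps it on the same strand. With TUBB2A and with TUBB2B it shares 3.09% each. Values of TUBB2A, TUBB2B, TUBB3, TUBA1B and TUBA1A as single isotypes are uncertain, by an amount that these shares do not give. How shared reads were counted is not stated, and the level of the other copy matters too.

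Before XD23, the 10 genes covered a wide range of levels, and in FPKM β-tubulin messages outweighed α-tubulin messages. FPKM divides by gene length, and the lengths worked out from the values ran from 2037 bases for TUBB4B to 7421 for TUBB3. The order of isotypes, the sums and the shares below rest on these lengths. In the second control library, TUBA1C had 8466 fragments and TUBB4B 4202, although TUBB4B was higher in FPKM. TUBB, the broadly expressed class I β-tubulin, was highest at 207.97 ± 4.15 FPKM (SD, n = 3). TUBA1B and TUBA1C, the common α-tubulins of dividing cells, stood at 109.04 ± 3.41 and 96.35 ± 1.17 FPKM, with the class IVb β-tubulin TUBB4B between them at 103.6 ± 1.00 FPKM. The class V β-tubulin TUBB6 followed at 55.3 ± 0.751 FPKM, and then came TUBA1A, the α-tubulin best known from developing neurons, at 17.4 ± 1.79 FPKM. TUBB2B and TUBB2A, the class II β-tubulins abundant in brain, had 8.47 ± 0.653 and 4.19 ± 0.270 FPKM, and TUBA4A, an α-tubulin prominent in platelets, had 3.26 ± 0.551 FPKM. TUBB3, the class III β-tubulin used as a neuronal marker, was lowest at 0.471 ± 0.0248 FPKM. In the control group no neighbours in this order overlapped in their 3 values, although TUBB2A and TUBA4A came close (3.91 FPKM as the lowest TUBB2A value and 3.86 FPKM as the highest TUBA4A value). At 24 h, TUBB4B overlapped with TUBA1B, TUBA1B with TUBA1C and TUBB2A with TUBA4A, and at 48 h TUBA1B overlapped with TUBA1C. By mean, TUBB4B ranked above TUBA1B at 24 h and at 48 h, without overlap at 48 h.

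**Figure D1:**
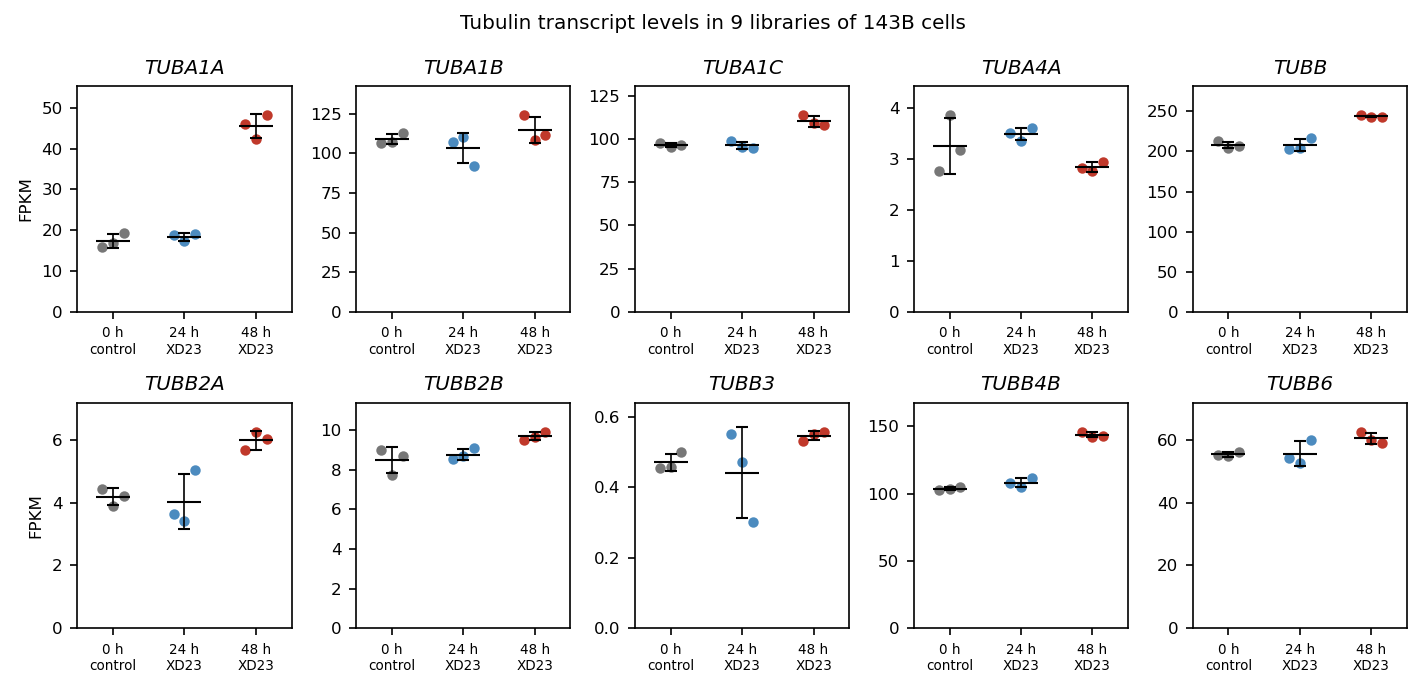
Level of each tubulin gene in FPKM (vertical axis, from 0, its own scale in each panel) in the 3 libraries of each group (points) by time with XD23, with the mean and SD over 3 libraries in black. TUBA1A stands between 42.25 and 48.13 FPKM at 48 h, above every control and 24 h library, which lie between 15.92 and 19.4 FPKM.

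Genes with at least 1 FPKM in at least 3 libraries were tested, and 9 of the 10 tubulins passed, each above 1 FPKM in all 9 libraries. TUBB3 did not pass. After 48 h of XD23, 6 of the 9 tested tubulins rose and 0 fell against control (limma on log2(FPKM + 1), adjusted p under 0.05 over all genes). Over all 13657 genes tested, 28.5% were called in that comparison, 13.3% higher and 15.2% lower. The median log2 fold change was 0.19 over the 9 tubulins and -0.02 over all genes tested. In 8 of all 10 tubulins every 48 h value lay above every control value, the exceptions being TUBA1B and TUBA4A. Over all genes tested, the groups did not overlap in 50.4%, with 22.7% higher at 48 h. In bulk RNA, more cells with a message and more message per cell cannot be told apart.

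TUBA1A had the highest fold change of the 9 tested tubulins, although TUBB4B and TUBB gained more FPKM. Its level was 46.08, 42.25 and 48.13 FPKM in the 48 h libraries, against 15.92, 16.87 and 19.4 FPKM in control. The groups lay far apart, with the lowest 48 h library above the highest control by more than the range of either group. The mean was 2.61-fold higher, and the log2 fold change was 1.34 ± 0.08 (SE; limma, adjusted p = 2.87e-05). This was the 12th highest log2 fold change among all 13657 genes tested. The gene had 1244 to 3975 fragments per library, taking the shortest gene length that makes all 9 values whole fragments. The call held in all 20 alternative settings, with log2 fold changes of 1.28 to 1.42.

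TUBA1C, its neighbour on chromosome 12, rose by a smaller margin. It stood at 113.6, 109.01 and 107.89 FPKM at 48 h, against 97.43, 95.1 and 96.53 FPKM in control. The groups did not overlap, and the log2 fold change was 0.19 ± 0.03 (limma, adjusted p = 0.0039). TUBA1B had 123.95, 108.56 and 111.59 FPKM at 48 h, against 106.84, 107.31 and 112.96 FPKM in control. These values overlapped, and TUBA1B was not called (log2 fold change 0.07 ± 0.07, adjusted p = 0.515), although it is the closest copy of TUBA1A. TUBA4A had 2.83, 2.76 and 2.94 FPKM at 48 h, against 2.77, 3.86 and 3.17 FPKM in control. It was the single tested tubulin with a negative estimate (-0.14 ± 0.09, adjusted p = 0.251), and it was not called in this comparison under any alternative. TUBA4A shares 15.4% of its exonic bases with STK16 on the opposite strand, which averaged 4.78 FPKM at 48 h and 4.53 FPKM in control. What this overlap adds to the TUBA4A values was not tested.

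Among the β genes, TUBB4B had the most precise rise. It stood at 145.7, 142.25 and 142.65 FPKM at 48 h, against 102.9, 103.2 and 104.8 FPKM in control. Each group was tight and the groups did not overlap. The log2 fold change was 0.47 ± 0.03 (limma, adjusted p = 5.62e-05), a mean 1.38-fold higher. TUBB, the most abundant member, had 244.9, 243.4 and 242.8 FPKM at 48 h, against 212.5, 204.4 and 207.05 FPKM in control (log2 fold change 0.23 ± 0.04, adjusted p = 0.00192). Here too all 48 h libraries lay above all control libraries.

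The 2 class II genes rose with less certainty. TUBB2A had 5.67, 6.25 and 6.01 FPKM at 48 h, against 4.44, 3.91 and 4.22 FPKM in control (log2 fold change 0.43 ± 0.11, adjusted p = 0.019). TUBB2B had 9.51, 9.63 and 9.9 FPKM at 48 h, against 8.99, 7.73 and 8.68 FPKM in control (0.18 ± 0.05, adjusted p = 0.0399). Neither pair of groups overlapped. TUBB2A lost its call with no filter, and on removal of the second or the third library of either group (adjusted p up to 0.0671). TUBB2B lost it in 9 of 20 alternatives, including removal of any 48 h library, the second 24 h library, or the second or the third control library (adjusted p up to 0.11). Because reads of this pair can be exchanged, their sum was also taken: it averaged 15.7 ± 0.408 FPKM at 48 h and 12.7 ± 0.919 FPKM in control (SD, n = 3 each).

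TUBB6 and TUBB3 were not called. TUBB6 had 62.45, 59.97 and 58.96 FPKM at 48 h, against 55.0, 54.74 and 56.15 FPKM in control. Its groups did not overlap, but the adjusted p was 0.0951 (log2 fold change 0.13 ± 0.05, limma). It was called higher in 5 of 20 alternatives, including removal of the third 24 h library, which is outside the comparison but enters the shared spread. TUBB3 had 0.532, 0.553 and 0.557 FPKM at 48 h, against 0.455, 0.458 and 0.5 FPKM in control, on 49 to 94 fragments per library over all groups. These values did not overlap, with an exact two-sided permutation p of 0.1, the smallest that 3 against 3 libraries allow. Without the filter, limma gave TUBB3 an adjusted p of 0.692. TUBB3 also shares 35.8% of its exonic bases with another gene that overlaps it on the same strand. What this overlap adds to the TUBB3 values was not tested.

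**Figure D2:**
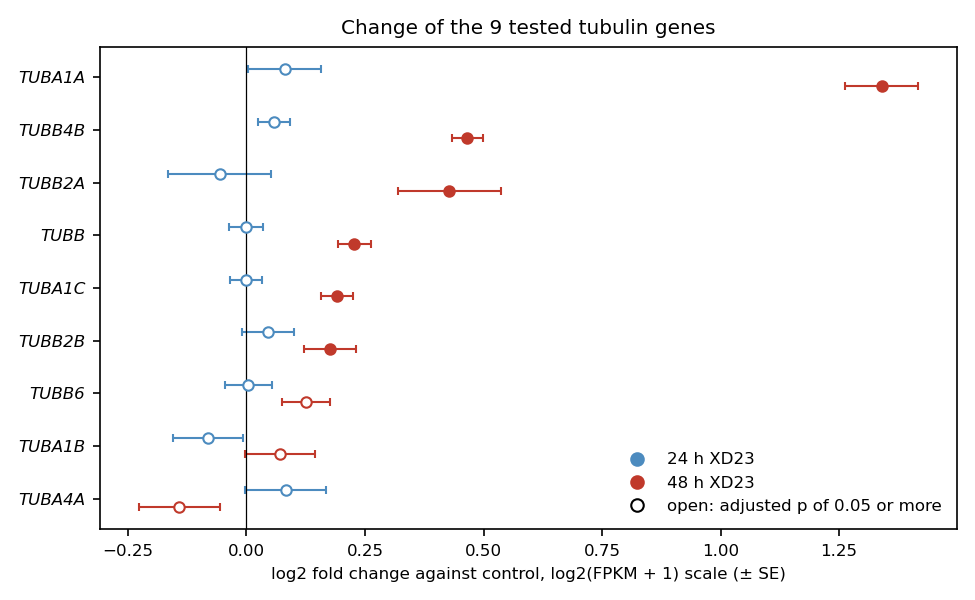
Log2 fold change against control with its SE (horizontal axis, log2(FPKM + 1) scale) for the 9 tested tubulin genes after 24 h (blue) and 48 h (red) of XD23; filled points were called at an adjusted p under 0.05. The 24 h points lie near 0, between -0.08 and 0.08, and the 48 h points reach 1.34 for TUBA1A.

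At 24 h none of the 9 tested tubulins was called against control, where 0.00732% of all genes tested were called (1 gene by limma). At an unadjusted p under 0.05 there were 0 tubulins and 1015 genes in all. The log2 fold changes lay between -0.08 ± 0.07 for TUBA1B and 0.08 ± 0.09 for TUBA4A. TUBA1A had 18.77, 17.29 and 19.15 FPKM at 24 h, within the range of the control libraries. The 3 values of every tubulin, TUBB3 included, overlapped between 24 h and control, where 13.2% of all genes tested did not overlap and 4.81% did so with higher values at 24 h. The third 24 h library, which stands apart as a whole, had the lowest TUBA1B of all 9 libraries (92.34 FPKM, where the other 24 h libraries had 107.4 and 110.1) and the lowest TUBB3 (0.301 FPKM). Among the 24 h libraries it had the highest TUBA1A, TUBA4A, TUBB, TUBB2A, TUBB2B, TUBB4B and TUBB6. Without it the count of called tubulins at 24 h was still 0. 

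Set against 24 h instead of control, 5 tubulins rose at 48 h and 0 fell, where 32.3% of all genes tested were called. TUBA1A rose by 1.26 ± 0.08 on the log2 scale (limma, adjusted p = 2.31e-05). TUBB2A rose by 0.48 ± 0.11 (adjusted p = 0.00979), TUBB4B by 0.41 ± 0.03 (7.71e-05), TUBB by 0.23 ± 0.04 (0.00159) and TUBA1C by 0.19 ± 0.03 (0.00319). In all 5 genes every 48 h library lay above every 24 h library. Over all genes tested these groups did not overlap in 46.1%, with 23.1% higher at 48 h. TUBA4A had lower values in every 48 h library (2.76 to 2.94 FPKM) than in every 24 h library (3.36 to 3.6 FPKM), with a log2 fold change of -0.22 ± 0.09 and an adjusted p of 0.0755. It was called lower in 3 of 19 alternatives, with the fit to the 2 groups alone and on removal of control replicate 1 or control replicate 2 (adjusted p down to 0.0239). The comparisons share libraries, so their counts are not independent of each other.

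Summed over isotypes, the tubulin messages were higher at 48 h in both families. The 4 α genes summed to 222.96, 223.1 and 232.06 FPKM before XD23, 228.5, 225.9 and 210.1 FPKM at 24 h, and 286.5, 262.6 and 270.6 FPKM at 48 h. The 6 β genes summed to 384.3, 374.4 and 381.4 FPKM before XD23, 378.4, 373.7 and 401.8 FPKM at 24 h, and 468.7, 462.04 and 460.9 FPKM at 48 h. In both families all 48 h libraries lay above all others, while the 24 h and control libraries overlapped. Together the 10 genes took 0.207% ± 0.0035 of the summed FPKM before XD23, 0.201% ± 0.0045 at 24 h and 0.253% ± 0.0052 at 48 h (SD, n = 3). The ratio of α to β was 0.595 ± 0.0142 in control, 0.577 ± 0.0469 at 24 h and 0.589 ± 0.0215 at 48 h. All groups overlapped in this ratio. At 48 h its mean differed from that of control by less than the SD of either group.

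The make-up of the α pool shifted towards TUBA1A. TUBA1A made up 7.69% ± 0.618 of the α messages in control, 8.33% ± 0.736 at 24 h and 16.7% ± 0.982 at 48 h. TUBA1B made up 48.2% ± 0.397 in control, 46.6% ± 2.43 at 24 h and 41.95% ± 1.14 at 48 h. Of the 47.2 FPKM by which the α sum was higher at 48 h than in control, TUBA1A held 59.6%, TUBA1C 29.3% and TUBA1B 12.0%. In the β pool TUBB4B held 47.6% and TUBB 42.6% of the 83.8 FPKM difference. The share of TUBB4B among β messages was 27.3% ± 0.430 in control, 28.1% ± 0.455 at 24 h and 30.9% ± 0.149 at 48 h, while that of TUBB was 54.7% ± 0.518 in control, 54.05% ± 0.444 at 24 h and 52.5% ± 0.254 at 48 h. These shares describe the members as chosen and carry no test.

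**Figure D3:**
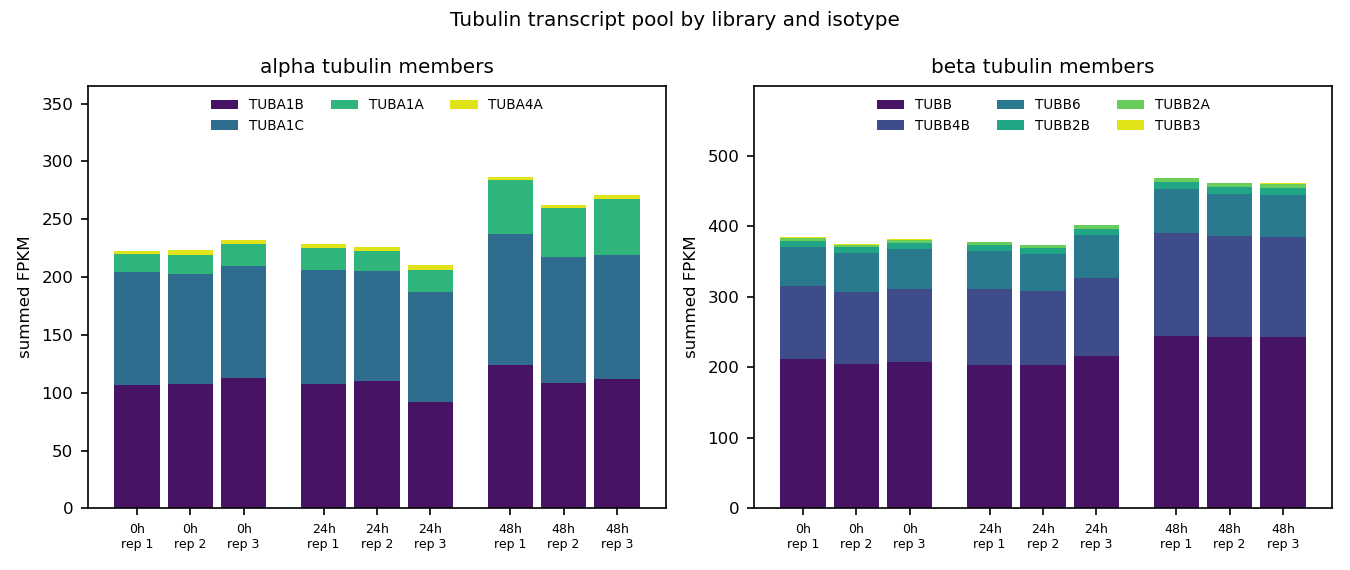
Summed FPKM (vertical axis) of the 4 α-tubulin genes (left) and the 6 β-tubulin genes (right) in each of the 9 libraries, ordered by time with XD23 and stacked by isotype. The α bars stand at 262.6 to 286.5 FPKM at 48 h, where the TUBA1A segment is widest, and the β bars at 460.9 to 468.7 FPKM.

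The promoters of the 2 members with the highest log2 fold changes at 48 h against control, TUBA1A and TUBB4B, are printed beside that of TUBA1B, which was not called. They are the 250 bases before each gene's start in RefSeq (GRCh38.p14), chosen after the values were seen. GENCODE release 29 starts TUBA1A at 49189324 (minus strand) and TUBB4B at 137241213 (plus strand). Most of the TUBA1A window and part of the TUBB4B window therefore lie inside the GENCODE gene. Capitals mark matches on either strand to the TATA motif TATAAA, the CCAAT motif, the GC box GGGCGG, the cAMP response element TGACGTCA, the AP-1 motif TGANTCA and the E-box CACGTG, and no motif contains another.

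TUBA1A (chr12:49189081-49189330, minus strand): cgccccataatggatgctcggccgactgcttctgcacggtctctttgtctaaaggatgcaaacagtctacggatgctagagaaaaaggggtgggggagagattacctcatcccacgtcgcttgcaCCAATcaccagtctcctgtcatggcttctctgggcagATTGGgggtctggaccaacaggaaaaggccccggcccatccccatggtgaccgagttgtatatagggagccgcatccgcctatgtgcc
TUBB4B (chr9:137241037-137241286, plus strand): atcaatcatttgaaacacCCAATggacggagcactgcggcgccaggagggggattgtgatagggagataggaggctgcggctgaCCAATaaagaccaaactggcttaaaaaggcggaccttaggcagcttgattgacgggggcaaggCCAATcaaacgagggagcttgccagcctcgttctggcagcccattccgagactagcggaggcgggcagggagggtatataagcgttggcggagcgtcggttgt
TUBA1B (chr12:49131396-49131645, minus strand): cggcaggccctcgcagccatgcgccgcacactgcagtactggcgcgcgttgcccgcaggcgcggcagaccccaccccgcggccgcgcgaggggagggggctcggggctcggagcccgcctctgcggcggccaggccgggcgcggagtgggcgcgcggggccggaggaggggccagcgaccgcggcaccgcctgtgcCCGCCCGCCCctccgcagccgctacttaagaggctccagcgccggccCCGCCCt

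TUBA1A held 2 matches to CCAAT and TUBB4B 3, and neither held GGGCGG. TUBA1B held 3 matches to GGGCGG, of which 2 overlap, and none to CCAAT. Among 35116 RefSeq windows of the same length, 32.0% held CCAAT and 42.6% held GGGCGG. TUBA4A, also not called, held 4 matches to GGGCGG and none to CCAAT, whereas TUBB2A, which rose, held 5 to GGGCGG, 1 to TATAAA and 1 to TGACGTCA. TUBB2B, which rose, held 1 match to each of CCAAT and GGGCGG. RefSeq gives several starts for the others. TUBA1C held 1 CCAAT in each of 3 windows and 2 GGGCGG in 1 of them. The first 2 of these windows overlap, and their CCAAT is the same site. TUBB held 1 of each in its first window and 5 GGGCGG in the other. TUBB6, not called, held neither in its first window and 1 CCAAT with 6 GGGCGG in the other, and TUBB3, not tested, held neither in 1 window and 1 CCAAT with 3 GGGCGG in the other. Both motifs thus occurred in called and in other members. Of the remaining motifs, CACGTG had 1 match in the third window of TUBA1C and 1 in the second of TUBB. TGANTCA had 1 match in the first window of TUBB3. Among all RefSeq windows, 10.7% held TATAAA, 1.65% TGACGTCA, 6.57% TGANTCA and 6.34% CACGTG. These are matches of letters, not known binding sites.

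Other genes of the tubulin pathway were read from lists put together by function. Of 12 other tubulin genes, 4 were tested: none rose and TUBE1, the centriolar ε-tubulin, fell by 0.16 on the log2 scale (SE 0.04; limma, adjusted p = 0.0197). That call ended under median-of-ratios scaling and on removal of control replicate 1 or 2 or 48 h replicate 1 or 3 (adjusted p up to 0.0737). TUBG1, the main γ-tubulin that nucleates microtubules, had 11.3 ± 0.735 FPKM at 48 h and 11.3 ± 0.627 FPKM in control (SD, n = 3 each). The brain isotype TUBB4A lay below the filter, at 0.825 ± 0.0675 FPKM at 48 h and 0.586 ± 0.0715 FPKM in control.

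Among genes that fold tubulin, those that changed fell. The chaperonin CCT folds new α- and β-tubulin, prefoldin delivers them to it, and the cofactors TBCA to TBCE assemble the dimer. Of 20 tested members of this list, 8 fell and 0 rose at 48 h, with a median log2 fold change of -0.13 against -0.02 over all genes, of which 15.2% fell. The CCT subunits CCT6A (157.7 ± 3.96 FPKM at 48 h and 189.9 ± 3.96 in control; log2 fold change -0.27 ± 0.04, adjusted p = 0.00135), CCT8 (-0.24 ± 0.05, 0.0117) and TCP1 (-0.22 ± 0.05, 0.0151) and the prefoldin subunit PFDN6 (-0.23 ± 0.06, 0.0162) had the lowest log2 fold changes among the called members. TCP1 lost its call under median-of-ratios scaling and on removal of the first or the third control or the second 48 h library (adjusted p up to 0.0584). PFDN6 lost it on removal of the second 48 h library (0.0545).

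Of 12 tested genes of the autoregulation machinery, 2 rose and 2 fell at 48 h, near the shares of all genes tested (13.3% higher and 15.2% lower), and the median log2 fold change was -0.03. TTC5, the reader of nascent tubulin, had 3.24 ± 0.169 FPKM at 48 h and 3.49 ± 0.208 FPKM in control (log2 fold change -0.08 ± 0.06, adjusted p = 0.311), and SCAPER, the adaptor, 1.53 ± 0.164 and 1.18 ± 0.0454 FPKM (0.21 ± 0.08, 0.0813). SCAPER was called higher in 3 of 19 alternatives, after quantile normalization, without a trend and with array weights (adjusted p down to 0.0336). CNOT11, the CCR4-NOT subunit that SCAPER binds, rose by 0.18 ± 0.05 (0.0212), a call lost on removal of any 48 h library or of the first or the third control library (adjusted p up to 0.0679). The deadenylase CNOT8 rose by 0.28 ± 0.04 (0.00212), and its close relative CNOT7 (-0.18 ± 0.04, 0.00979) and the subunit CNOT9 (-0.25 ± 0.03, 0.000797) fell.

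Among genes of microtubule nucleation, 3 of 20 tested fell and 0 rose, with a median of -0.09; the 3 that fell are close to the 15.2% over all genes. HAUS8, a subunit of the augmin complex that branches spindle microtubules, fell to 1.67 ± 0.103 FPKM at 48 h, against 2.72 ± 0.119 FPKM in control (-0.48 ± 0.07, adjusted p = 0.00128). HAUS6 (-0.18 ± 0.05, 0.0169) and the γ-tubulin complex gene TUBGCP5 (-0.15 ± 0.04, 0.0165) fell by less. Both lost their calls over nuclear genes alone and on removal of the first or the third control or the second 48 h library, HAUS6 also on removal of the third 48 h library and TUBGCP5 of the first (adjusted p up to 0.0865). Of 16 tested enzymes that modify tubulin, 1 rose and 0 fell, where 28.5% of all genes were called. It was TTLL7, which adds glutamates to the β-tubulin tail (0.22 ± 0.06, 0.025), a call lost with the replicate block and on removal of any 1 of the 6 libraries compared (adjusted p up to 0.08).

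Of 32 tested genes of microtubule-binding and severing proteins, 7 rose and 4 fell at 48 h, where 13.3% of all genes rose and 15.2% fell, and the median was 0.02. MAP1S, a microtubule-associated protein, rose to 8.75 ± 0.333 FPKM at 48 h, against 6.31 ± 0.571 FPKM in control (0.42 ± 0.06, adjusted p = 0.0013). The plus-end protein MAPRE3 (0.37 ± 0.06, 0.00367), the minus-end protein CAMSAP1 (0.31 ± 0.08, 0.0146) and the plus-end linker CLIP2 (0.30 ± 0.08, 0.0283) rose too. FIGNL1, a relative of the severing enzyme fidgetin that acts in DNA repair, fell to 8.8 ± 0.542 FPKM at 48 h, against 14.05 ± 0.577 FPKM in control (-0.62 ± 0.05, 9.48e-05). FIGN, fidgetin itself (-0.23 ± 0.07, 0.0356), MAP7D3 (-0.22 ± 0.05, 0.0132) and the kinesin KIF18A (-0.21 ± 0.04, 0.00319) fell as well. CAMSAP1 lost its call on removal of the first control or the second 48 h library (adjusted p up to 0.0569). CLIP2 and FIGN lost theirs with no filter and on removal of the first or the third control or the second or the third 48 h library, FIGN also of the first 48 h library, after quantile normalization, over nuclear genes alone and with the replicate block (adjusted p up to 0.117). MAP7D3 lost its call over nuclear genes alone (0.0696).

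**Figure D4:**
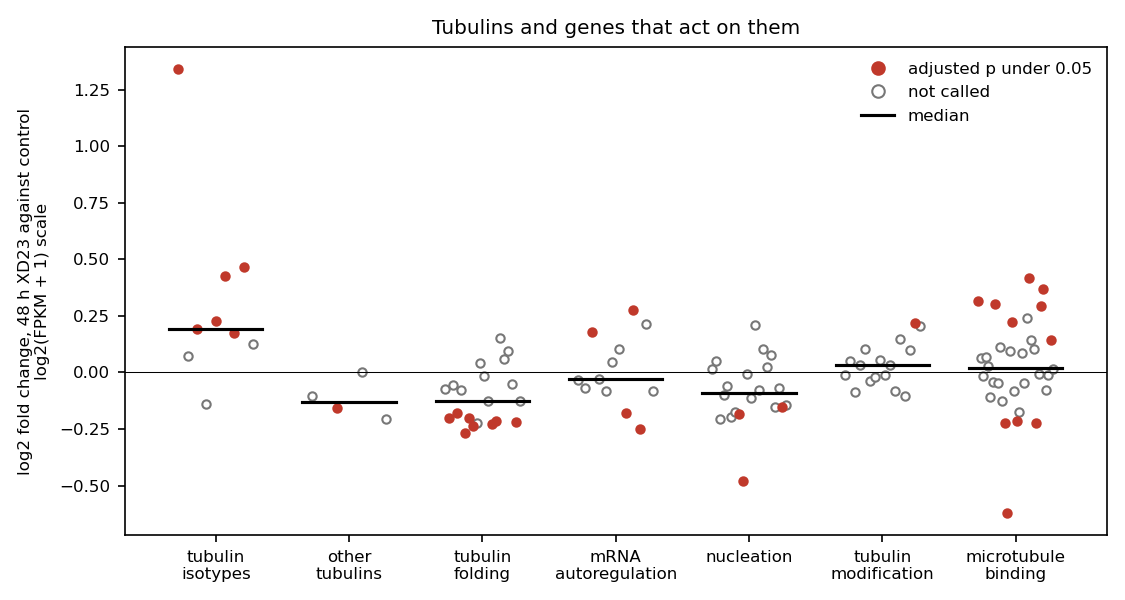
Log2 fold change at 48 h against control (vertical axis, log2(FPKM + 1) scale) of each tested gene in the tubulin set and 6 lists of genes that act on tubulin; red points were called at an adjusted p under 0.05 and black bars are medians. The tubulin median is 0.19 and that of the folding list -0.13.

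The genes whose levels ran most like TUBA1A over the 9 libraries, on the log2(FPKM + 1) scale, were IRF2 (Pearson r 0.996), TRIB1 (0.995), JUNB (0.995), MSX1 (0.993) and RAB31 (0.993), out of 6575 genes compared, all averaging 5 FPKM or more. TUBB4B came 9th in that order (r 0.992), TUBB 169th (0.960), TUBA1C 220th (0.954), TUBB2B 1075th (0.802), TUBB6 1167th (0.780) and TUBA1B 2060th (0.493). The genes most like TUBB were TMEM30A (0.991), DNTTIP1 (0.990), CHORDC1 (0.989), PNRC1 (0.989) and SERPIND1 (0.988). These correlations are over libraries that share 3 groups, and they carry no p.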

How the data were processed

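The deposited table gives FPKM (fragments per kilobase of gene, scaled to the library's total) that the authors made, 1 column per library with replicates kept apart. The submitters' processing notes list hg38 as the build and HISAT2, featureCounts, Subread and DESeq2 as tools; their versions, strand setting and annotation are not given in the sources. Per the labels' protocols, paired-end libraries were made from poly(A) RNA.

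Genes with at least 1 FPKM in at least 3 libraries were tested on log2(FPKM + 1) with limma 3.58.1 in R 4.3.3: 1 mean per group over all 9 libraries, eBayes with a trend, 6 residual degrees of freedom, two-sided p with Benjamini-Hochberg adjustment over 13657 genes, called under 0.05. The pseudocount of 1 understates changes of low genes. The fit was also tried on simulated data with the same spread in every group, a simpler setting than these libraries. Depth was worked out by finding, for each library, the total that made values whole fragments. With these totals, 20926 genes with GENCODE release 29 lengths were whole to within 0.001 of a fragment in all libraries. Fragments of the members were worked out with the shortest gene length that makes all 9 values whole, so they depend on that length too. Shared stretches, coding sequences and overlaps came from GENCODE release 29 (GRCh38), and promoters from RefSeq (GRCh38.p14). For most members the length worked out from the values differs from the exonic bases of that release. It was 3823 against 3421 bases for TUBA1A and 2907 against 1727 for TUBB2A, while TUBA1B had 3574 in both. The shared stretches and overlaps can therefore describe other gene models than those the authors counted. No protein sequence was used. The coding ends of the α genes are not reported here. Sums and shares over members got no p.

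The members, lists and tests were chosen with earlier results of these data known. The named genes were all 10 tubulins, up to 4 called genes per direction and list at 48 h against control, always TTC5, SCAPER and CNOT11, and the 5 genes most correlated with TUBA1A and with TUBB. Alternatives were other pseudocounts, filters and scalings, no trend, array weights, a fit to the 2 groups at hand, a replicate block, and removal of each library in turn.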

Additional observations from a re-analysis of the deposited data

Results flagged for a closer look

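For 5 tubulins the change after 48 h of XD23 differed from that after 24 h by a test of the difference itself, the 48 h against 24 h contrast in limma. The difference in log2 fold change was 1.26 for TUBA1A (adjusted p = 2.31e-05), 0.48 for TUBB2A (0.00979), 0.41 for TUBB4B (7.71e-05), 0.23 for TUBB (0.00159) and 0.19 for TUBA1C (0.00319). In each of the 5, all 3 libraries at 48 h lay above all 3 at 24 h. These calls held in all 20 alternatives, with adjusted p up to 0.0398 for TUBB2A. Among all genes tested, 32.3% were called in that contrast.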

How the results depend on the processing

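Against control at 48 h, 6 tubulins were called, and 4 to 7 in the alternatives; against 24 h the count was 5, and 5 to 7 in the alternatives, where 3 of the counts include a fall of TUBA4A; at 24 h against control it was 0 in all. Leaving out 1 library gave 4 to 7, 5 to 7 and 0 to 0. TUBA1A, TUBB4B, TUBB and TUBA1C were called at 48 h against control in all 20 alternatives, and no call of a tubulin changed direction. For all genes, leaving out 1 library moved the calls at 48 h against control to between 2551 (without 48 h replicate 2) and 5136 (3891 with all libraries), against 24 h to between 2946 and 4600, and at 24 h against control to between 0 and 2 (1 with all libraries). At 24 h against control the calls over all genes were 3 without a filter, 4 after quantile normalization, 46 with array weights, and 0 without a trend, with only the groups compared or with the replicate block. With the replicate block the tubulin counts were 6, 5 and 0, as without it. Libraries of the same number did not deviate together (r from -0.0571 to 0.239), so the numbers were not taken to pair them. The α sum was 47.2 FPKM higher at 48 h than in control (40.5 to 52.5 without 1 library) and 13.4 without TUBA1A and TUBA1B, which share at least 20% of their stretches of 50 bases with other genes. The β sum was 83.8 FPKM higher (81.02 to 85.97 without 1 library), 93.5 under median-of-ratios scaling and 93.6 over nuclear genes alone. At 24 h the sums differed from control by -8.02 to 1.14 (α) and -3.97 to 10.08 FPKM (β) without 1 library. Of 21 other named genes that were called, 10 kept the call in every alternative. The depth limits TUBB3 most, at 49 to 94 fragments per library.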

Other observations

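Copies of the tubulin genes that are not thought to make protein gave low values. The processed pseudogene TUBBP1 had 2.83 ± 0.146 FPKM at 48 h and 2.16 ± 0.225 FPKM in control (log2 fold change 0.28 ± 0.10, limma, adjusted p = 0.0741), and TUBB2BP1 had 0.875 ± 0.21 and 0.55 ± 0.182 FPKM. TUBAP2 had 0.547 ± 0.0314 FPKM at 48 h and 0.437 ± 0.124 FPKM in control. AFG3L2, a mitochondrial protease gene whose exons overlap those of TUBB6 on the opposite strand, fell to 13.1 ± 0.203 FPKM at 48 h, against 14.8 ± 0.11 FPKM in control (-0.16 ± 0.05, adjusted p = 0.0291).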
